A study of Mus musculus with 16 samples.

Results

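Srebf2 and 7 genes of its cholesterol program were followed across 16 RNA-seq libraries of mouse muscle stem cells (MuSCs). Srebf2 encodes SREBP2, a membrane-bound transcription factor. The other 7 are Insig1, which encodes a protein that retains SREBP2 in the endoplasmic reticulum, and Hmgcs1, Idi1, Fdft1, Sqle, Lss and Dhcr7, which encode enzymes of the mevalonate and sterol pathway. These 8 genes, of 24411 in the count table, were selected on their measured values in these same groups, so their levels and fold changes are given as a description. The labels name 4 groups of 4 libraries: wild type (here control) and TRF2 knockout MuSCs, each uninjured or 3 days post-injury (3 DPI). All mice were on a C57BL/6 background. The knockout mice, TRF2MuSC-cKO, carried floxed TRF2 (gene Terf2) alleles and a tamoxifen-inducible Cre driven from Pax7, which is active in MuSCs. Per the study's methods, tamoxifen was given at 3 mg per 20 g of body weight in 7 injections, the first when the mice were between 8 and 10 weeks old. The exact alleles of the control mice, whether they received tamoxifen, and whether animals were pooled are not given in the sources used here. Injured muscle had received 10 µl of notexin, a snake toxin that destroys myofibers. MuSCs were sorted as CD45-, CD31-, CD11b- and Sca1- cells that carried α7-integrin and VCAM or CD34.

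Cells that run short of sterol carry SREBP2 to the Golgi with the escort protein SCAP, where the proteases encoded by Mbtps1 and Mbtps2 release its active part. That part enters the nucleus and binds sterol regulatory elements in the promoters of the synthesis genes, of Insig1 and of Srebf2 itself. When sterol is plentiful, the INSIG proteins hold the SCAP complex back, and oxysterols activate the liver X receptors (LXR), which turn on cholesterol export. RNA levels show the output of this loop, not the processing of the protein.

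Terf2, the targeted gene, was read first. In uninjured controls it was at 68.9, 91.2, 64.8 and 69.3 CPM (counts relative to library size, scaled by the TMM factors of edgeR), and in uninjured TRF2MuSC-cKO libraries at 50.3, 46.1, 58.8 and 26.8 CPM. These groups did not overlap, with a log2 fold change of -0.62 (SE 0.27) that did not pass the call. At 3 DPI the control libraries were at 34.2, 48.1, 48.8 and 43.3 CPM and those labelled TRF2MuSC-cKO at 51.5, 20.7, 62.0 and 84.3 CPM (log2 fold change 0.44, SE 0.42). Of the labelled libraries, replicate 2 lay below every control at 3 DPI and the others above, so as a group they do not follow their label at this gene. The log2 fold change ranged from 0.13 to 0.70 when a library was left out and was -0.18 under another alternative. All 3 DPI libraries are called by their label throughout. A count per gene also takes in exons outside the floxed part. Library totals ran from 620506 to 1351130 estimated counts, so 1 CPM stands for 0.673 to 1.20 estimated reads. Replicate 3 of the 3 DPI libraries labelled TRF2MuSC-cKO had a count for 15387 genes, against at least 19996 in each of the other 15, and the fold changes that move most without it are also given without it. Levels, sums and correlations include it. Unless stated, a gene is called here when its Benjamini-Hochberg adjusted p from the quasi-likelihood test of edgeR is under 0.02 and its fold change is over 1.5.

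The MuSC label was checked against 8 markers (Pax7, Myf5, Itga7, Vcam1, Cd34, Sdc4, Calcr and Chodl). Their summed level was 3027 to 4408 CPM in uninjured controls, 1776 to 2486 CPM in uninjured TRF2MuSC-cKO libraries, 645 to 962 CPM in controls at 3 DPI and 374 to 519 CPM in the 3 DPI libraries labelled TRF2MuSC-cKO. Macrophage markers (8 genes: Ptprc, Adgre1, Csf1r, Cd68, Itgam, Lyz2, C1qa and C1qb) summed to 61.0 to 108 CPM, 104 to 184 CPM, 4707 to 6307 CPM and 1860 to 5568 CPM in the same order. No marker of either list was at 0 in all libraries of a group. The sort should remove cells with CD45 (Ptprc) and CD11b (Itgam). In bulk RNA, fewer cells of a type and less RNA per cell cannot be told apart.

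Srebf2, Hmgcs1 and Insig1 are shown by their promoters, which were taken from RefSeq on GRCm38.p6, because the first is the factor, the second holds a sterol regulatory element and the third is part of the feedback. Srebf2 lies on the plus strand at chr15:82147181-82205379, Hmgcs1 at chr13:119690379-119708260 and Insig1 at chr5:28071363-28078662 (GENCODE M21, GRCm38). Each stretch lies before the RefSeq start of transcription and outside every annotated exon, on the plus strand at chr15:82147031-82147180, chr13:119690201-119690350 and chr5:28071213-28071362. Capitals mark matches to the sterol regulatory element (TCACNCCAC), the E-box (CACGTG), the CCAAT box (CCAAT, or ATTGG on the other strand) and the GC box (GGGCGG, or CCGCCC).
Srebf2: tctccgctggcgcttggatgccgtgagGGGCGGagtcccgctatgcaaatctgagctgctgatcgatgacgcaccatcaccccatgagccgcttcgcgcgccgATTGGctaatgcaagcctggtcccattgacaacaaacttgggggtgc
Hmgcs1: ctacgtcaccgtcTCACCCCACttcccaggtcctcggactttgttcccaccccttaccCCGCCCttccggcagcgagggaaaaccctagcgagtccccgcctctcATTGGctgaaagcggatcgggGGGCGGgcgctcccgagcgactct
Insig1: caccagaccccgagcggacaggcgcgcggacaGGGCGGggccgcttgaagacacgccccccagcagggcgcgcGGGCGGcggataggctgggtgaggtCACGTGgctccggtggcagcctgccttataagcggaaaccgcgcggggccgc
Of the members, 6 had a promoter window of 250 bases before to 50 bases after the start (Srebf2, Hmgcs1, Insig1, Idi1, Lss and Dhcr7, the last with 3 starts), and Sqle and Fdft1 had none. On both strands, the sterol regulatory element letters were found in 1 of the 6, Hmgcs1, starting 137 bases before its start, against 1.44% of 27025 genes. The CCAAT box was in 6 of 6 (41.1% of genes) and the GC box in 6 of 6 (38.2%). The E-box was in Insig1 and in a window of Dhcr7 (8.09% of genes). A pattern of 4 runs of at least 3 G separated by 1 to 7 bases, the form of a G-quadruplex, was in Hmgcs1 and Dhcr7 (20.4% of genes). These are matches of letters, and a window without one says only that these letters are not in it.

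An intron of Srebf2 also holds Mir33, at chr15:82198122-82198190 on the plus strand, overlapping none of the Srebf2 exons. Its product miR-33 is known to repress the cholesterol exporters Abca1 and Abcg1 and the lysosomal transporter Npc1, which are measured below. The mature strand is shown with its seed, bases 2 to 8, in capitals.
mmu-miR-33-5p: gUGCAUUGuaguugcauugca
The libraries were made from total RNA after ribosomal RNA depletion. They held 1 read assigned to Mir33 in all, so they give no level of the microRNA.

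Srebf2 was highest in uninjured controls and lowest in the 3 DPI libraries labelled TRF2MuSC-cKO. Uninjured control libraries held 358, 295, 279.6 and 288 CPM, and uninjured TRF2MuSC-cKO libraries 188, 180.5, 229 and 197 CPM. Controls at 3 DPI held 119, 179, 161 and 232 CPM, and 3 DPI libraries labelled TRF2MuSC-cKO 69.8, 61.1, 83.8 and 70.1 CPM. Every uninjured control library lay above every other library, every 3 DPI library labelled TRF2MuSC-cKO lay below every other library, and the 2 groups between them overlapped. The means were 305 ± 35.9, 199 ± 21.6, 173 ± 47.0 and 71.2 ± 9.38 CPM (SD, n = 4), a 4.29-fold range. Replicate 3, the library with few detected genes, was the highest of its group.

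**Figure D1:**
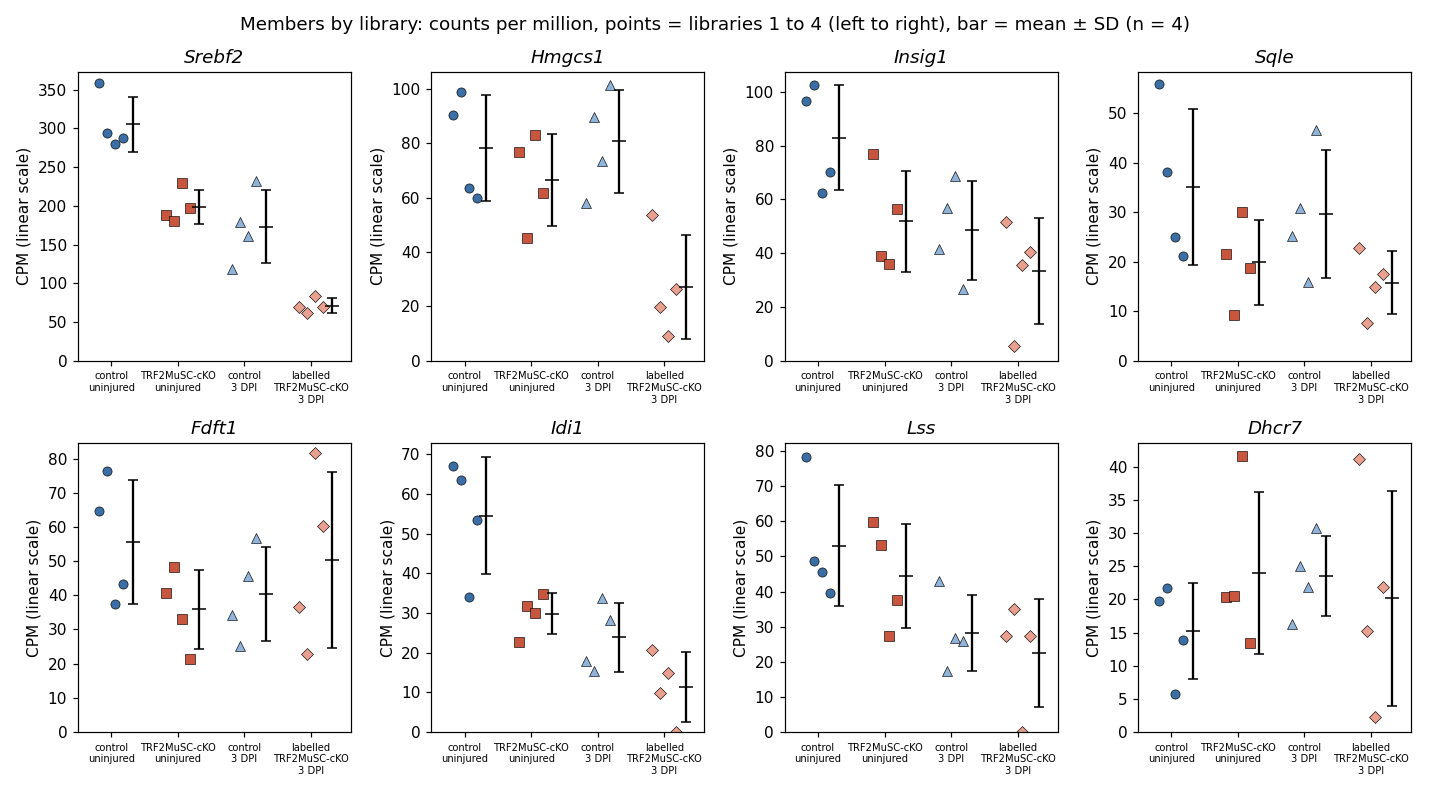
Level of each of the 8 members in CPM (vertical axis, linear, from 0) in the 4 groups, with 1 point for each library and the mean ± SD (n = 4) beside the points. Srebf2 is lowest in the 4 libraries labelled TRF2MuSC-cKO at 3 DPI (61.1 to 83.8 CPM), whereas Fdft1, Sqle and Dhcr7 overlap across all groups.

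Hmgcs1, the cytosolic synthase of the early mevalonate pathway, was lower in 1 group than in either control group. It was at 90.4, 99.1, 63.7 and 60.0 CPM in uninjured controls, at 76.7, 45.1, 83.2 and 61.6 CPM in uninjured TRF2MuSC-cKO libraries and at 57.9, 89.5, 73.7 and 102 CPM in controls at 3 DPI. The 3 DPI libraries labelled TRF2MuSC-cKO held 53.8, 19.6, 9.18 and 26.3 CPM. These last libraries lay below all control libraries of either state and overlapped the uninjured TRF2MuSC-cKO libraries, and the other 3 groups overlapped one another.

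Idi1, the isomerase that makes dimethylallyl diphosphate (chr13:8885501-8892451, plus strand), had the largest range of group means, 4.81-fold. Uninjured controls were at 67.2, 63.4, 34.1 and 53.6 CPM and uninjured TRF2MuSC-cKO libraries at 22.8, 31.8, 30.1 and 34.8 CPM. Controls at 3 DPI were at 17.8, 15.4, 33.8 and 28.3 CPM. Libraries labelled TRF2MuSC-cKO at 3 DPI were at 20.6, 9.82, 14.9 and 0 CPM, where the count of 0 allows a level of up to 3.28 CPM (3 counts, counting error only). Uninjured controls lay above all controls at 3 DPI, and uninjured TRF2MuSC-cKO libraries lay above all 3 DPI libraries of that label.

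Insig1 was at 96.4, 103, 62.5 and 70.2 CPM in uninjured controls and at 76.7, 39.0, 35.9 and 56.3 CPM in uninjured TRF2MuSC-cKO libraries. It was at 41.6, 56.8, 68.7 and 26.7 CPM in controls at 3 DPI and at 51.5, 5.45, 35.6 and 40.5 CPM in the libraries labelled TRF2MuSC-cKO. Its group means stood in the same order as those of Srebf2, but neighbouring groups overlapped.

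Sqle encodes squalene epoxidase (chr15:59315077-59331192, plus strand) and Lss lanosterol synthase (chr10:76531588-76557138, plus strand), the consecutive enzymes that oxidise squalene and close the sterol ring. Sqle ranged from 21.2 to 56.0 CPM in uninjured controls and from 9.23 to 30.1 CPM in uninjured TRF2MuSC-cKO libraries. At 3 DPI it ranged from 15.9 to 46.6 CPM in controls and from 7.64 to 22.9 CPM in libraries labelled TRF2MuSC-cKO. Lss ranged from 39.7 to 78.4 CPM and from 27.3 to 59.9 CPM in the uninjured groups and from 17.3 to 43.1 CPM in controls at 3 DPI. In the libraries labelled TRF2MuSC-cKO at 3 DPI, Lss was at 27.5, 34.9, 0 and 27.4 CPM, with the 0 in replicate 3, where it allows up to 3.44 CPM. Both genes overlapped between genotypes in either state.

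Unlike Srebf2, Fdft1 and Dhcr7 did not have their lowest group mean in the 3 DPI libraries labelled TRF2MuSC-cKO. Fdft1 encodes squalene synthase, the first step committed to sterols (chr14:63145150-63179578, minus strand), and Dhcr7 the reductase that makes cholesterol from 7-dehydrocholesterol (chr7:143823145-143848410, plus strand). Fdft1 was at 55.5 ± 18.2 CPM in uninjured controls, 35.8 ± 11.4 CPM in uninjured TRF2MuSC-cKO libraries, 40.4 ± 13.8 CPM in controls at 3 DPI and 50.3 ± 25.9 CPM in the libraries labelled TRF2MuSC-cKO (SD, n = 4). Its highest value at 3 DPI, 81.5 CPM, was in replicate 3. Fdft1 overlaps Ctsb, a lysosomal protease gene on the opposite strand, which was at 4250 ± 449 CPM in controls at 3 DPI and 212 ± 10.8 CPM in uninjured controls. The kit keeps strand, but the strand setting of the counting is not given in the sources used here, so the reads of Fdft1 are uncertain. Dhcr7 was at 15.3 ± 7.21, 24.0 ± 12.2, 23.5 ± 6.05 and 20.2 ± 16.2 CPM in the same order of groups and was the 1 member whose mean was lowest in uninjured controls. Of the 8 members, 6 had their lowest group mean in the 3 DPI libraries labelled TRF2MuSC-cKO.

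Between genes, levels can be compared only per transcript length. On the second deposited table, in which abundances per length are rescaled to each library's total, Srebf2 was the most abundant member in uninjured controls at 155 ± 17.2 length-scaled CPM (SD, n = 4), followed by Insig1 at 73.7 ± 17.1, Hmgcs1 at 52.0 ± 13.1 and Idi1 at 44.4 ± 11.2 length-scaled CPM. Dhcr7 was the least abundant at 12.6 ± 5.93 length-scaled CPM. In the libraries labelled TRF2MuSC-cKO at 3 DPI, Srebf2 was at 43.8 ± 9.97 length-scaled CPM, within the spread of Fdft1 at 39.2 ± 23.8 and Insig1 at 35.0 ± 19.6 length-scaled CPM. In CPM without length scaling, the replicate spread of the members was 11.8% to 47.3% of the mean in uninjured controls. It was 13.2% to 80.4% in the 3 DPI libraries labelled TRF2MuSC-cKO, and in each case least for Srebf2.

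The first comparison asked what loss of TRF2 does to resting MuSCs. In uninjured muscle 7 of the 8 members were lower in TRF2MuSC-cKO, with a median log2 fold change of -0.54, beside a median of 0.06 over the 14048 genes tested. The values were -0.54 (SE 0.19) for Srebf2, -0.60 (SE 0.27) for Insig1, -0.79 (SE 0.31) for Idi1, -0.76 (SE 0.40) for Sqle, -0.54 (SE 0.31) for Fdft1, -0.17 (SE 0.26) for Hmgcs1 and -0.17 (SE 0.30) for Lss, and 0.70 (SE 0.47) for Dhcr7. Single libraries moved several of these, large values among them: Lss was at 0.06 and Sqle at -0.47 without replicate 1 of the controls, Sqle at -0.52 and Hmgcs1 at -0.02 without replicate 2 of TRF2MuSC-cKO, and Dhcr7 at 0.30 without replicate 3 of TRF2MuSC-cKO. Over the fits that left out a library, Sqle ranged from -1.04 to -0.47, Lss from -0.35 to 0.06, Hmgcs1 from -0.31 to -0.02 and Dhcr7 from 0.30 to 0.90, whereas Srebf2 ranged from -0.64 to -0.48 and Idi1 from -0.98 to -0.70. None of the 8 was called by edgeR, limma or DESeq2, and 3 had an unadjusted p under 0.05, as did 2736 of all genes. Over all genes 2.63% (370) were called lower and 0.584% (82) higher. Without a single library these counts were 214 to 488 lower and 40 to 86 higher, with the lowest ones without replicate 1 (214 lower) and replicate 2 (40 higher) of the controls. The balance of directions differed by tool, with 142 lower and 157 higher by limma and 509 and 114 by DESeq2, and by scaling, with 212 lower and 176 higher on library size alone, which put the median of all genes at 0.24. Srebf2 alone did not overlap between the groups, as did not 8.15% of genes that were lower and 3.96% that were higher. The MuSC markers moved the same way, with 5 of 8 called lower (Calcr, Cd34, Itga7, Sdc4 and Vcam1), whereas the Schwann cell list (4 genes) summed to 217 to 292 CPM in controls and 328 to 455 CPM in TRF2MuSC-cKO, with none called. Of 5 smooth muscle and pericyte markers 2 (Cspg4 and Rgs5) were called higher, although the sums overlapped (710.2 to 1058 CPM against 621 to 1605 CPM), and of the fibroadipogenic markers Dcn was called higher and Dpt lower. The part of these markers in the values of the members was not tested. The codes in the library descriptions (JH135 and JH140 in controls, JH134 and JH139 in TRF2MuSC-cKO) are not explained and differ between the uninjured genotypes throughout, so code and genotype cannot be told apart there.

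**Figure D2:**
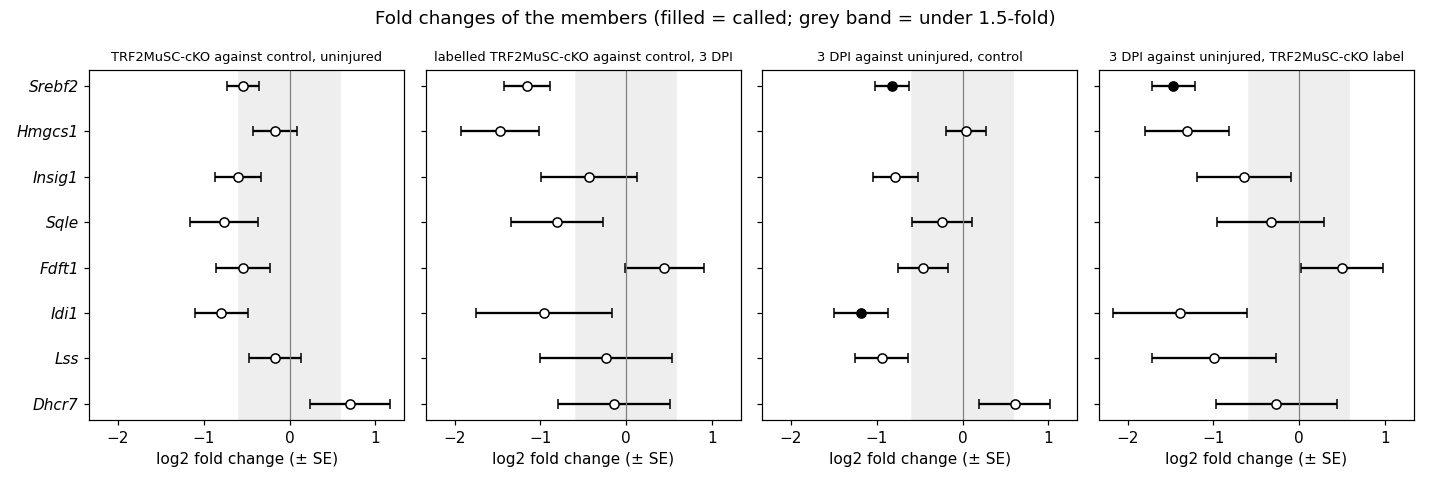
Log2 fold change (horizontal axis) ± SE of each member in the 4 comparisons between groups of 4 libraries, with filled points for called genes and a grey band for changes under 1.5-fold. Srebf2 (from -0.54 to -1.47), Insig1, Idi1, Sqle and Lss lie to the left of 0 in every panel, whereas Dhcr7, Fdft1 and Hmgcs1 lie on both sides.

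At 3 DPI, when MuSCs have been activated, 7 of 8 members were again lower in the libraries labelled TRF2MuSC-cKO, with a median log2 fold change of -0.62, beside 0.00144 over 14559 genes. Hmgcs1 was lower by a log2 fold change of -1.47 (SE 0.46), Srebf2 of -1.16 (SE 0.26), Idi1 of -0.95 (SE 0.80) and Sqle of -0.81 (SE 0.54). Insig1, Lss and Dhcr7 were within 1 SE of 0, at -0.43 (SE 0.56), -0.23 (SE 0.77) and -0.14 (SE 0.66), and Fdft1 was at 0.45 (SE 0.46). Srebf2 and Hmgcs1 did not overlap between the groups, as did not 5.75% of genes that were lower and 2.53% that were higher. No member was called by edgeR, with 2 at an unadjusted p under 0.05, 1 (Srebf2) was called by DESeq2 and none by limma. Over all genes edgeR called 0% lower and 0% higher, with 1362 at an unadjusted p under 0.05, whereas limma called 18 lower and 10 higher and DESeq2 17 lower and 5 higher. Without replicate 3 of the labelled TRF2MuSC-cKO libraries edgeR called 13 lower and 3 higher.

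Without replicate 3 of the labelled TRF2MuSC-cKO libraries, the median of the members at 3 DPI was -0.67, and the log2 fold changes were -1.29 (SE 0.25) for Srebf2, -1.22 (SE 0.34) for Hmgcs1, -1.16 (SE 0.67) for Idi1 and -0.82 (SE 0.49) for Sqle. Lss and Dhcr7 then lay above 0, at 0.18 (SE 0.41) and 0.21 (SE 0.44), and Fdft1 at 0.06 (SE 0.38). Insig1 was at -0.09 without replicate 2 and at -0.70 without replicate 1 of the same group, Hmgcs1 at -2.01 and Dhcr7 at -0.72 without replicate 1, Lss at -0.55 and Fdft1 at 0.67 without replicate 2, Idi1 at -0.56 without replicate 4, and Sqle at -0.53 without replicate 4 of the controls. Over all 8 fits that left out a library Srebf2 ranged from -1.30 to -1.01. Replicates 1 and 2 of both 3 DPI groups share the code JH133, whose meaning the labels do not give. Within these, Srebf2 was at -1.16 (SE 0.33), Hmgcs1 at -0.99 (SE 0.47) and Idi1 at -0.10 (SE 0.69). The summed MuSC markers did not overlap between the 3 DPI groups (645 to 962 CPM against 374 to 519 CPM, with 0 of 8 called). Single markers did, such as Pax7 (123.3 to 186.6 CPM against 24.0 to 124.4 CPM). The macrophage sums overlapped (4707 to 6307 CPM against 1860 to 5568 CPM, lowest in replicate 3), as did the myofiber sums (177 to 256 CPM against 255 to 444 CPM, highest in replicate 3), with no marker of either list called. The part of these markers was not tested.

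Injury was compared within each genotype label. The unexplained codes differ in part between the states: JH135 and JH140 against JH133 and JH140 in controls, and JH134 and JH139 against JH133 and JH139 in TRF2MuSC-cKO. The part of the codes in the injury values was not tested. The comparisons share libraries with those between genotypes, so the values are only set side by side. In controls 6 of 8 members were lower at 3 DPI, with a median of -0.62 beside 0.07 over 15356 genes. The log2 fold change was -0.82 (SE 0.20) for Srebf2 and -1.19 (SE 0.31) for Idi1, both called, -0.94 (SE 0.31) for Lss, -0.79 (SE 0.26) for Insig1, -0.46 (SE 0.29) for Fdft1 and -0.24 (SE 0.35) for Sqle. Hmgcs1 was at 0.04 (SE 0.23) and Dhcr7 at 0.61 (SE 0.41). Over the fits that left out a library, Srebf2 ranged from -0.99 to -0.69 and Idi1 from -1.40 to -1.02. Sqle ranged from -0.56 (without replicate 4 at 3 DPI) to 0.06 (without replicate 1 uninjured), Hmgcs1 from -0.10 (without replicate 4 uninjured) to 0.15 (without replicate 1 at 3 DPI), Fdft1 from -0.67 to -0.28 (without replicates 4 and 2 at 3 DPI) and Dhcr7 from 0.32 to 0.78 (without replicates 3 and 2 uninjured). The 2 of 8 called lower stand beside 9.46% of all genes called lower and 10.8% higher, and both did not overlap, as did not 11.4% (lower) and 12.8% (higher) of genes. Idi1 was not called without replicate 2 of the controls at 3 DPI, and without replicate 3 of the uninjured controls 4 members were called, Insig1 and Lss in addition. With limma and with DESeq2 3 members were called, Lss in addition. The MuSC markers were lower (8 of 8 called) and the macrophage markers higher (8 of 8 called) in the same comparison, and their part was not tested.

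In the libraries labelled TRF2MuSC-cKO, 7 of 8 members were lower at 3 DPI than in uninjured muscle, with a median of -0.82 beside 0.00705 over 14578 genes. The values were -1.47 (SE 0.25) for Srebf2, -1.39 (SE 0.78) for Idi1, -1.30 (SE 0.49) for Hmgcs1, -0.99 (SE 0.73) for Lss, -0.64 (SE 0.55) for Insig1, -0.33 (SE 0.62) for Sqle, -0.26 (SE 0.71) for Dhcr7 and 0.51 (SE 0.48) for Fdft1. Srebf2 was the 1 member called, and remained so without replicate 3 of the 3 DPI libraries at -1.55 (SE 0.26). Without it the median of the members was -0.61, with Hmgcs1 at -0.99 (SE 0.38), Lss at -0.56 (SE 0.40), Dhcr7 above 0 at 0.14 (SE 0.51) and Fdft1 at 0.17 (SE 0.41). Without replicate 2 of the 3 DPI libraries Insig1 was at -0.25, Sqle at -0.07 and Fdft1 at 0.78, without replicate 1 Dhcr7 was at -0.84, and without replicate 2 of the uninjured libraries Sqle was at -0.58. Over all 8 such fits Srebf2 ranged from -1.55 to -1.37, Hmgcs1 from -1.84 to -0.99 and Idi1 from -1.81 to -0.94. All genes gave 1.61% (235) called lower and 2.43% (354) called higher. Without replicate 3 of the 3 DPI libraries these were 513 and 803, and without any other single library 134 to 167 and 214 to 283. Here 6 of 8 MuSC markers were called lower and 7 of 8 macrophage markers higher, and their part was not tested. Srebf2 and Idi1 did not overlap, as did not 7.76% of genes that were lower and 6.16% that were higher.

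The genotype effect at 3 DPI minus that in uninjured muscle was -1.22 (SE 0.52) for Hmgcs1, -0.54 (SE 0.31) for Srebf2 and 1.06 (SE 0.56) for Fdft1 on the log2 scale, and 4 of 8 members were below 0. No member was called by edgeR, limma or DESeq2, and 1 had an unadjusted p under 0.05. Over 16822 genes 0.0178% were called lower and 0% higher by edgeR, with 966 at an unadjusted p under 0.05, whereas limma called 78 lower and 45 higher and DESeq2 15 lower and 9 higher. Without replicate 3 of the labelled TRF2MuSC-cKO libraries at 3 DPI edgeR called 9 lower and 4 higher, and Hmgcs1 was at -1.06 (SE 0.43), Srebf2 at -0.76 (SE 0.32) and Fdft1 at 0.59 (SE 0.50). Without replicate 1 of the same group Hmgcs1 was at -1.75 (SE 0.49).

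Other genes of the pathway were taken as lists by role. For the other mevalonate and sterol synthesis enzymes only the median log2 fold change is given. Between genotypes it was -0.23 in uninjured muscle (14 tested) and -0.59 at 3 DPI (14 tested). With injury it was -0.02 in controls (15 tested) and -0.57 in TRF2MuSC-cKO (14 tested). Of the genes that sense sterol and process SREBP2, 10 of 11 listed were in the table and none was called between genotypes. With injury in controls 2 of 10 fell (beside 9.46% of all genes), Insig2 (-1.55, SE 0.32, edgeR adjusted p = 0.000142) and Mbtps1 (-1.39, SE 0.21, adjusted p = 9.06e-07). In the TRF2MuSC-cKO libraries 1 of 10 fell, beside 1.61% of all genes, again Mbtps1 (-1.26, SE 0.28, edgeR adjusted p = 0.0136). This call was lost in 7 of the 8 fits that left out a library (kept without replicate 3 at 3 DPI). Scap was at -0.12 and -0.92 in the same comparisons and Srebf1 at -0.61 and -1.06, not called. Over the fits that left out a library, Scap in controls ranged from -0.31 to -0.01.

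Cholesterol uptake genes moved both ways with injury. Of the genes of this list reported here, the lipoprotein receptor gene Vldlr fell in controls (-1.61, SE 0.20, edgeR adjusted p = 1.82e-08) and 5 rose, beside 9.46% of all genes called lower and 10.8% higher. Those were Lipa, the lysosomal acid lipase (3.09, SE 0.26, adjusted p = 5.48e-13), Npc2 (2.21, SE 0.21, adjusted p = 1.56e-11) and Npc1 (0.99, SE 0.21, adjusted p = 0.000313), which carry cholesterol out of lysosomes, the HDL receptor Scarb1 (1.13, SE 0.26, adjusted p = 0.000773) and Stard3 (1.42, SE 0.37, adjusted p = 0.00365), a sterol carrier of late endosomes. Stard3 was not called without replicate 1 of the uninjured controls or replicate 2 of the controls at 3 DPI. In TRF2MuSC-cKO 1 fell (Vldlr, -1.82) and 2 rose (Npc2, 2.04, and Lipa, 3.24), beside 1.61% and 2.43% of all genes. Between genotypes none of the 15 listed genes was called.

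Of the LXR targets and partners, which export or esterify cholesterol, 5 of 10 tested were called with injury in controls (10.8% of all genes were called higher), and each of the 5 rose: Abcg1 (3.05, SE 0.25, edgeR adjusted p = 2.38e-13) and Abca1 (2.03, SE 0.21, adjusted p = 8.65e-11), which pump cholesterol out of cells, Apoe (2.09, SE 0.19, adjusted p = 2.54e-12), which carries it in lipoproteins, Nr1h3, which encodes LXRα (2.04, SE 0.33, adjusted p = 3.69e-06), and Soat1, which esterifies it (1.33, SE 0.21, adjusted p = 2.63e-06). In TRF2MuSC-cKO 3 of 10 rose, beside 2.43% of all genes called higher there. These were Apoe (2.95, SE 0.30, edgeR adjusted p = 3.35e-05), Abcg1 (1.96, SE 0.38, adjusted p = 0.00569) and Abca1 (1.57, SE 0.32, adjusted p = 0.00873). The call of Abca1 there was lost without any 1 of 6 libraries (all 4 uninjured, and replicates 1 and 2 at 3 DPI), and that of Abcg1 without any 1 of 5 (the same but replicate 1 uninjured). With limma neither was called. Apoe was the 1 gene of this list called between genotypes, beside 2.63% of all genes called lower in uninjured TRF2MuSC-cKO. It was at 1494 ± 118 CPM in uninjured controls and 768 ± 105 CPM in uninjured TRF2MuSC-cKO libraries (SD, n = 4). The log2 fold change was -0.88 (SE 0.19, edgeR adjusted p = 0.00186), a call lost with the second deposited table and with all 16 libraries in 1 fit. The macrophage markers rose in the same 2 injury comparisons, 8 of 8 called in controls and 7 of 8 in TRF2MuSC-cKO, and the MuSC markers fell, 8 of 8 and 6 of 8. Macrophages express Abca1, Abcg1, Apoe, Lipa and Npc2 at high levels, and their part in these values was not tested.

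In the related fatty acid program, run by SREBP1, 6 of 16 genes fell with injury in controls (9.46% of all genes were called lower): the desaturases Scd1 (-2.08, SE 0.22, edgeR adjusted p = 1.21e-10) and Scd2 (-0.67, SE 0.22, adjusted p = 0.0171), Thrsp (-1.91, SE 0.40, adjusted p = 0.00018), the acyltransferase Gpam (-1.40, SE 0.27, adjusted p = 6.2e-05), the fatty acid synthase Fasn (-1.12, SE 0.19, adjusted p = 1.13e-05) and the elongase Elovl6 (-0.97, SE 0.27, adjusted p = 0.00545). Scd2 was not called without any 1 of 6 libraries (replicates 1 and 2 uninjured and all 4 at 3 DPI), and Elovl6 not without replicate 1 uninjured or replicate 1 or 2 at 3 DPI. In TRF2MuSC-cKO 2 of 16 fell, beside 1.61% of all genes called lower there. These were Scd1 (-1.84, SE 0.29, edgeR adjusted p = 0.00114) and Fasn (-1.18, SE 0.27, adjusted p = 0.0161). The call of Fasn was lost in 7 of the 8 fits that left out a library (kept without replicate 3 at 3 DPI). With all 16 libraries in 1 fit, Insig2, Npc1, Scarb1, Stard3, Nr1h3, Scd2, Elovl6 and Nus1 were not called with injury in controls. No gene of the list was called between genotypes, although 4 of 16 were lower without overlap in uninjured muscle, beside 8.15% of all genes. Of 10 tested genes that use isoprenoids, such as those for ubiquinone and dolichol, 1 rose with injury in controls, near the 10.8% of all genes. This was Nus1 (0.98, SE 0.24, edgeR adjusted p = 0.00154), and no gene of this list was called in another comparison.

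How closely the members moved with Srebf2 was described over the 16 libraries, whose group differences, depth and markers they share. Pearson correlations of log2 CPM between Srebf2 and each of the other 7 ran from 0.07 to 0.78 with a median of 0.62, and between pairs of the other 7 from -0.25 to 0.70 with a median of 0.31. On deviations from the group means the medians were 0.21 and 0.05. Summed over the other 7 members, the level was 375 ± 101, 273 ± 35.0, 275 ± 34.6 and 180.5 ± 58.6 CPM (SD, n = 4) in the order of the groups. The lowest sum was 116 CPM, in replicate 2 of the libraries labelled TRF2MuSC-cKO at 3 DPI, and the highest 473 CPM, in replicate 1 of the uninjured controls.

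**Figure D3:**
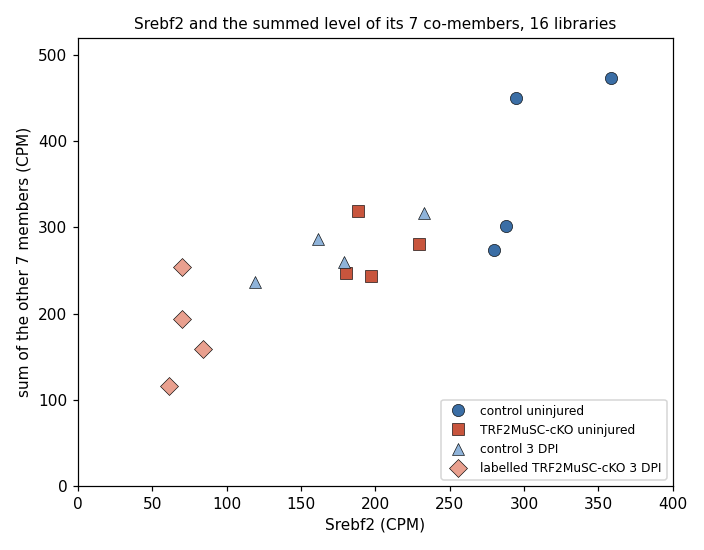
Srebf2 (horizontal axis, CPM) against the summed level of the other 7 members (vertical axis, CPM) in 16 libraries, with 1 symbol for each group. The libraries labelled TRF2MuSC-cKO at 3 DPI lie at the left with sums of 116 to 254 CPM, and the uninjured controls at the right with sums of 274 to 473 CPM.

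Among 12043 genes whose log2 CPM averaged 4 or more, 4 of the 5 most like Srebf2 over the 16 libraries were Des, which encodes desmin (r = 0.98), Cdc42ep1 (0.96), Fasn (0.95) and Dag1, which encodes dystroglycan (0.94). Des was at 864 ± 140, 512 ± 86.0, 372 ± 76.0 and 125 ± 33.1 CPM (SD, n = 4), in the order of the Srebf2 means. On deviations from the group means these correlations were 0.68, 0.62, 0.58 and 0.37. The genes most like the mean of the other 7 members were the splicing factor gene Srsf1 (0.94), Acaca (0.91), which encodes acetyl-CoA carboxylase, Mef2d (0.90), Lix1l (0.90) and Myc (0.89), and on deviations from the group means their correlations were 0.93, 0.79, 0.75, 0.79 and 0.81.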

How the data were processed

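RNA of sorted MuSCs was sequenced after ribosomal RNA depletion with the random-primed, strand-specific CORALL kit in 16 libraries. The submitters' processing notes name Trim Galore 0.6.7, STAR 2.6.1d and Salmon 1.5.2 with GRCm38 (mm10), and the annotation release and the use of the molecular identifiers are not given in the sources used here, so counting error covers reads only. The authors deposited estimated counts per gene, not normalized, for 24411 genes, and a second table of estimated counts rescaled by abundance.

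Groups were taken from the labels. The study's methods speak of biological replicates in general. Each library description carries a code and a suffix of letters, which are not explained. The animal behind each library is therefore not known, and tests measure the spread between these libraries. Estimated counts were rounded, filtered (filterByExpr), TMM-scaled and tested per comparison on its 8 libraries (the interaction on 16) with edgeR 4.0.16 (quasi-likelihood, robust) in R 4.3.3 and Benjamini-Hochberg adjustment, called at an adjusted p under 0.02 and a fold change over 1.5. The standard error is the log2 fold change divided by the square root of the test statistic. CPM uses TMM over all 16 libraries, and log2 CPM a prior count of 2. The procedure was also run on simulated counts drawn without an outlying library, and that outcome is not used here. Alternatives were limma 3.58.1 (robust), DESeq2 1.42.0, other scalings, filters and libraries, the second table and a replicate block.

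The members and gene lists were chosen with earlier results of these data known. Named genes are the members, Terf2, Scap, Insig2, Srebf1, every listed gene called in any comparison, and the 5 genes most correlated with Srebf2 and with the mean of the other members. Some genes that this rule names are not reported here. Ctsb was named after its values were seen. Ufd1 of the sensing list was not in the table. Promoter and microRNA sequences are from RefSeq.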

Additional observations from a re-analysis of the deposited data

How the results depend on the processing

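In every group 7 of the 8 members averaged under 100 CPM, and the part of depth in their spread was not tested. Of the log2 fold changes of the members, 131 of 134 values under the alternatives kept their sign in the uninjured genotype comparison (exceptions Hmgcs1 and Lss), 131 of 137 at 3 DPI (Dhcr7 and Lss), 126 of 135 for injury in controls (Hmgcs1 and Sqle), 128 of 130 for injury in TRF2MuSC-cKO (Dhcr7) and 152 of 186 for the interaction. No called value changed sign.

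Calls of members at 3 DPI numbered 0 and became 1 with DESeq2. For injury in controls the 2 calls became 4 with median-of-ratios scaling and without a filter, 1 with all 16 libraries in 1 fit, and 1 to 4 when a library was left out. Other pathway genes called lower in uninjured TRF2MuSC-cKO numbered 2, and 4 with DESeq2, 4 without a filter, 0 with the second table and 1 with all 16 libraries. For injury in controls the 11 called higher became 6 with all 16 libraries. For injury in TRF2MuSC-cKO the 5 called lower became 3 without a filter and 2 with the second table, and the 5 called higher 3 with limma and 2 with the second table. When a library was left out they were 3 to 5 lower and 3 to 6 higher. In the interaction limma called 1 other gene higher. The cause of these differences was not tested.

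The replicate numbers share only a number: libraries of the same number correlated at -0.11 to 0.12 in their deviations from the group means. With the replicate block 4 other pathway genes were lower in uninjured TRF2MuSC-cKO, and 3 lower and 3 higher with injury in TRF2MuSC-cKO. The calls of members were 0, 0, 2 and 1 lower as before. Over all genes, the calls in uninjured muscle ranged from 11 to 509 lower and 6 to 190 higher under alternatives with all 8 libraries or more, for injury in controls from 734 to 1566 and 861 to 1989, and for injury in TRF2MuSC-cKO from 109 to 483 and 174 to 721. With 250 bases before the start alone, the members with each motif were the same.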

Other observations

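Other cell types were described by marker lists. Summed endothelial markers were at 390 to 598 CPM in uninjured controls, 277 to 480 CPM in uninjured TRF2MuSC-cKO libraries, 438 to 658 CPM in controls at 3 DPI and 440 to 505 CPM in 3 DPI libraries labelled TRF2MuSC-cKO. Fibroadipogenic markers summed to 549 to 869 CPM, 472 to 914 CPM, 1469 to 2171 CPM and 1085 to 2297 CPM in the same order. Of their 6 genes 5 were called higher and 1 (Dpt) lower with injury in controls, 1 was called higher with injury in TRF2MuSC-cKO, and in uninjured TRF2MuSC-cKO Dcn was called higher and Dpt lower (edgeR). Myofiber markers summed to 156 to 183 CPM, 156 to 253 CPM, 177 to 256 CPM and 255 to 444 CPM, with the highest value in replicate 3, the library with few detected genes. Adipocyte markers summed to 73.9 to 133 CPM, 95.9 to 139 CPM, 165 to 316 CPM and 220.4 to 336 CPM. Smooth muscle and pericyte markers summed to 710.2 to 1058 CPM, 621 to 1605 CPM, 491 to 730.5 CPM and 596 to 708 CPM. Schwann cell markers at 3 DPI summed to 277 to 390.1 CPM in controls and 314 to 411 CPM in libraries labelled TRF2MuSC-cKO. No marker of these lists was at 0 in all libraries of a group.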
